A study of Mus musculus with 16 samples.

Results

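The proteasome degrades proteins that carry ubiquitin chains. Its barrel, the 20S core, is built from beta rings (Psmb genes) held between alpha rings (Psma genes), and the beta rings hold the proteolytic sites. The 19S particle caps the barrel, with a base of ATPases that unfold the substrate (Psmc genes) and a set of ubiquitin receptors, scaffolds and a deubiquitinase (Psmd genes). Other activators (Psme genes) can take the place of the 19S particle, and assembly chaperones (Psmg genes and some Psmd genes) help to build both parts. The mRNAs described here are those of all array genes whose name starts with Psm, a letter from a to g and a digit. This rule found 49 of 30214 gene names, covered by 62 of 39429 probes. One of the 49, Psmc3ip, encodes a meiotic recombination factor and no subunit, and is kept in the counts because the rule takes it.

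The arrays were hybridized with RNA of AML12 cells, a non-tumourigenic line of mouse hepatocytes. The cells carried a lentiviral shRNA, selected with puromycin and switched on by doxycycline, which was either a scramble sequence or directed against eIF6, a translation initiation factor that binds the large ribosomal subunit. The labels call the second group only an shRNA, and its target is taken from the study's methods. All cells received insulin for 1 h, which the methods and one label field give as 100 nM and another field as 100 mM, so there is no group without insulin. Sucrose gradients then separated heavy fractions with polysomes (polysomal RNA) from light fractions with free mRNA, ribosomal subunits and monosomes (subpolysomal RNA). Both fractions of both shRNAs make 4 groups with 4 one-colour Agilent arrays each, where each of the 4 slides held 1 array of every group. All samples come from 1 cell line.

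Between 20177 and 24953 probes per array were well above background, 58 to 60 of the 62 proteasome probes among them, and no spot was saturated. The targeted mRNA, Eif6, had a log2 signal of 12.94 to 12.96 on polysomes of the 4 scramble arrays and 11.81 to 12.00 in eIF6 shRNA cells, while its subpolysomal ranges (11.53 to 11.66 and 11.49 to 11.74) overlapped. Of the hepatocyte markers, Ttr, Apob, Hnf4a, Foxa2, Krt8 and Krt18 were well above background on all 16 arrays, Alb on 7 and Apoa1 on 2. Of these, Ttr rose in both fractions of eIF6 shRNA cells (1.15 on polysomes, adjusted p = 5.51e-07, and 1.33 in subpolysomes, adjusted p = 2e-07) and Foxa2 fell in subpolysomes (-0.40, adjusted p = 0.00897). Markers of other cells were detected as well. The fibroblast genes Col1a1, Col1a2, Vim and Pdgfrb were well above background on 16 arrays, and 3 of the 4 fell on polysomes of eIF6 shRNA cells (all but Vim). The mean log2 signal of these 4 genes was 13.07 to 14.00 on scramble polysomes and 10.57 to 11.43 on eIF6 shRNA polysomes, and 13.49 to 13.63 and 12.09 to 12.44 in subpolysomes. Among macrophage genes, 1 of 4 (Csf1r) fell in both fractions, the mean of the list being 5.14 to 5.63 on scramble and 4.71 to 4.98 on eIF6 shRNA polysomes, and 5.64 to 5.88 and 5.36 to 5.73 in subpolysomes. Csf1r and Cd68 were well above background on 16 arrays, Emr1 on 12 and Ptprc on 8. No endothelial or bile duct gene was called for the shRNA. The endothelial gene Pecam1 and the bile duct genes Krt7 and Krt19 were well above background on 16 arrays (Epcam on 6). Cdh5, which defines endothelium, was not well above background on any array. The part that these markers have in the results below was not tested.

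Probes entered the tests if a group had at least 2 arrays where they stood well above background, as 59 proteasome probes and 47 of the 49 genes did. The other genes were Psma8, the testis form of an alpha subunit, whose probe was above background on 0 of 16 arrays, and Psmb11, the thymic beta subunit, on 2 of 16. Log2 signals were quantile normalized, and limma compared the 4 group means. The question of what the eIF6 shRNA changed was put in 3 comparisons. Subtracting scramble from eIF6 shRNA gives a polysomal change and a subpolysomal change, and the former minus the latter is the change in translational efficiency. A further pair, polysomal minus subpolysomal signal within each shRNA, gives the polysome association. Genes count as called where the Benjamini-Hochberg adjusted p, taken over all 19365 genes, was below 0.05. Since quantile normalization gives every array the same distribution, each value is relative to the other genes on the array. All changes below are differences on the log2 scale, and the number of arrays limits their precision.

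Most proteasome mRNAs were richer on polysomes than in subpolysomes, compared with the other genes. In scramble cells, polysome association was called higher for 38 of 47 members (80.9%), against 31.7% of all genes tested, and lower for 1, against 28.4%. The median over the members was 0.93, and it was 0.04 over all genes. In eIF6 shRNA cells, 36 members were called higher (76.6%, against 32.1% of all genes) and 2 lower (against 28.7%), with a median of 0.71. Without replicate 2 (1 array of every group) the members called lower were 0 in both, and without replicate 4 they were 2 and 3. Scaling the arrays to the 75th percentile, to the spike-in probes or by quantiles within each fraction moved the median of all genes in scramble cells to between -0.34 and 1.52, and the members' median then lay 1.19 to 1.21 above it.

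The parts of the proteasome covered different ranges of this measure, although differences between parts were not tested. The 14 constitutive core subunits (Psma1 to Psma7 and Psmb1 to Psmb7) were all called higher on polysomes of scramble cells, with a median association of 1.30 and a range from 0.61 (Psmb1) to 1.83 (Psmb2). The 6 ATPases of the base (Psmc1 to Psmc6) had a median of 0.45 and reached 0.63 at most (Psmc3). The other 11 subunits of the 19S particle had a median of 0.67 and spread widely. Psmd14, the deubiquitinase of the particle, had 1.39 and Psmd3, a subunit of its lid, 1.11. The scaffold subunits Psmd1 and Psmd2 had -0.16 and 0.02 and were not called. The 5 activators and inhibitors, Psme1, Psme2b, Psme3, Psme4 and Psmf1, were all called, between 0.90 and 1.34. Among the chaperones of core assembly, Psmg1, Psmg2 and Psmg3 had 1.23, 0.67 and 1.00, while Psmg4 was the only member called lower (-0.51, adjusted p = 0.00796). With the arrays scaled to the spike-in probes or by quantiles within each fraction, 0 members were called lower in scramble cells. Of all genes, 2.04% and 4.64% were then called lower. The values above are differences within a gene, so they do not order the amounts of the mRNAs.

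**Figure D1:**
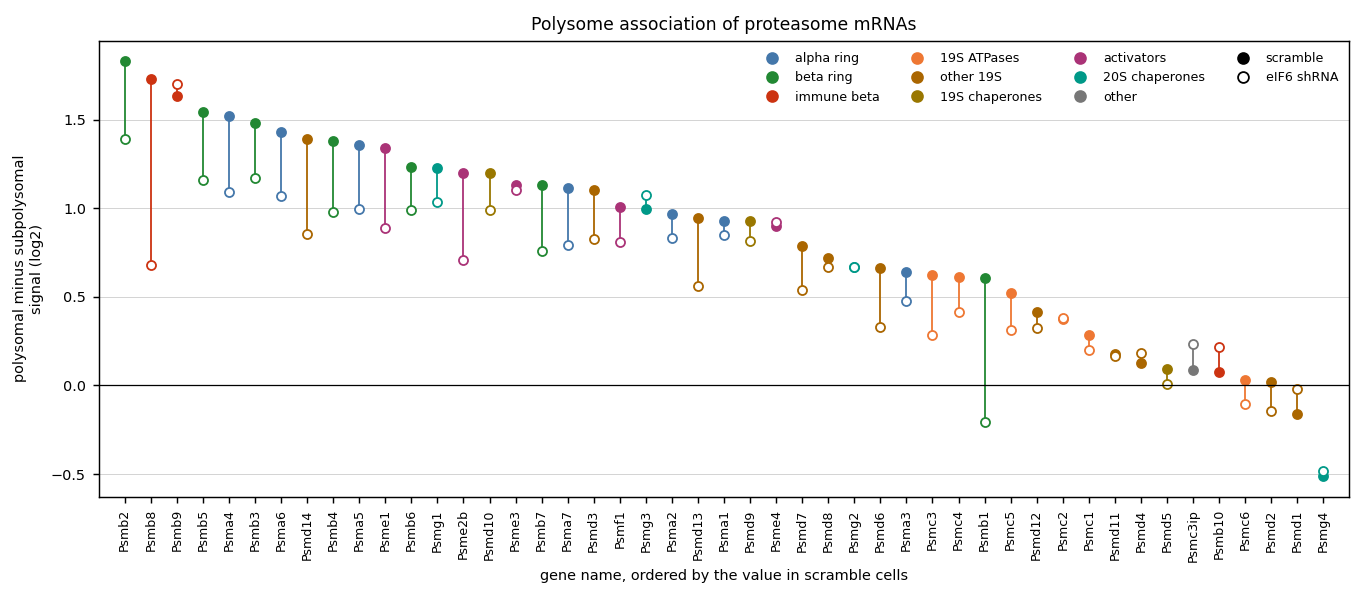
Polysome association (polysomal minus subpolysomal log2 signal, group means of 4 arrays each) of the 47 tested members, ordered by the value in scramble cells (filled) with the value in eIF6 shRNA cells (open), coloured by role. Core subunits fill most of the left side and ATPases the right; Psmb8 (1.73 to 0.68) and Psmb1 (0.61 to -0.21) have the longest lines.

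The eIF6 shRNA changed few proteasome mRNAs on polysomes. The polysomal change was called lower for 5 of 47 members (10.6%), where 10.7% of all genes were called lower, and higher for 4 (8.51%), where 11.1% were. These shares are close to those of all genes. The median over the members was -0.10, over all genes 0.02. In subpolysomes, 2 members were called lower (4.26%, against 12.4% of all genes) and 9 higher (19.1%, against 11.9%), with a median of 0.09 against 0.025. Translational efficiency was called lower for 2 members, Psmb1 and Psmb8 (4.26%, against 1.11% of all genes), and higher for 0 by limma, against 0.403% of all genes. At an unadjusted p under 0.05, still 0 of 47 members were higher in translational efficiency, against 998 of all 19365 genes. At that level 13 of the 47 were lower, against 1423 of all 19365 genes. The estimate lay below 0 for 38 of 47 members (80.9%), and for 47.5% of all genes.

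These counts depended on single replicates and on the scaling. With replicate 1, 2 or 3 left out, 3 members each time were called lower on polysomes, and 10 without replicate 4. The members called higher on polysomes then numbered 1, 1, 3 and 2, and those higher in subpolysomes 3, 4, 5 and 8. Lower calls in subpolysomes numbered 1 without replicate 1, 2 or 3 and 4 without replicate 4, and for translational efficiency there was 1 call without replicate 1, 2 or 3. Scaling to the spike-in probes, whose mean log2 signal varied between 12.12 and 13.62 over the arrays, moved the median of all genes on polysomes to -0.47. It left Psmb8 on polysomes as the only call of the members for the shRNA, while 5.45% of all genes were called lower there. It turned the members' subpolysomal median to -0.11, and that of all genes to -0.227.

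**Figure D2:**
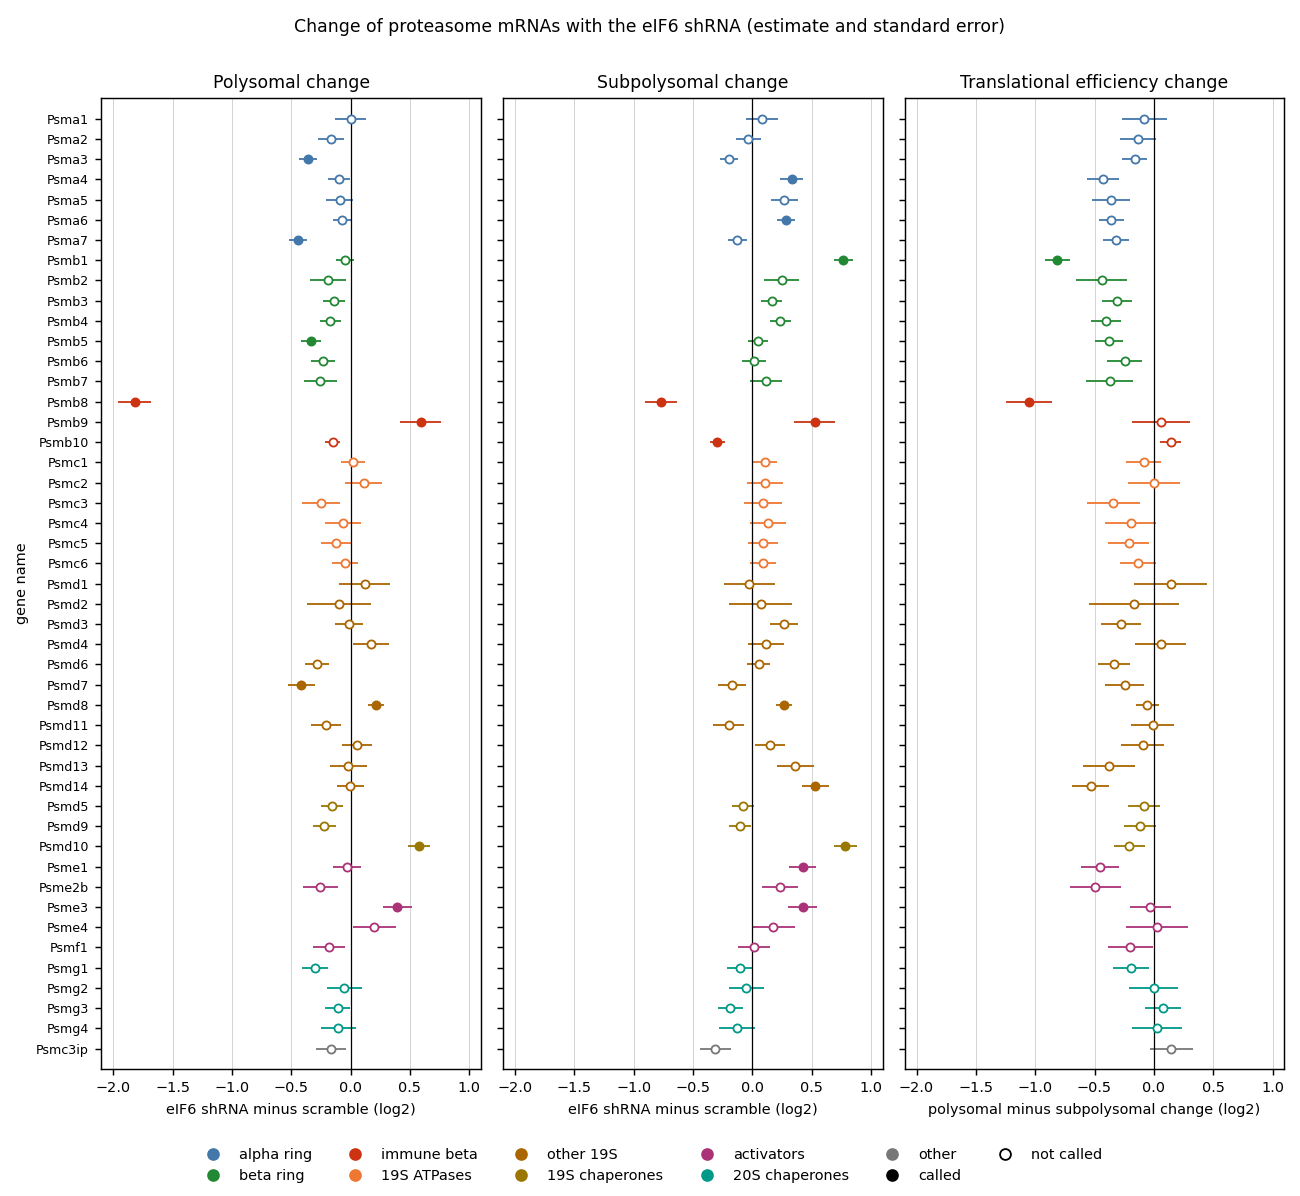
Polysomal, subpolysomal and translational efficiency change of the 47 tested members (log2, points with bars of 1 standard error from limma, 16 arrays), coloured by role and filled where called. Psmb8 lies far to the left in all 3 panels, Psmb1 far to the left in the right panel alone, and most core subunits sit left of 0 in the right panel.

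Of the 14 constitutive core subunits, 3 fell on polysomes (Psma3, Psma7 and Psmb5) and 3 others rose in subpolysomes (Psma4, Psma6 and Psmb1) in eIF6 shRNA cells, shares of 21.4% each where 10.7% and 11.9% of all genes were called so. The polysomal estimate was below 0 for 13 of the 14 and for 47.9% of all genes, and the subpolysomal one above 0 for 11 of the 14 and for 52.6% of all genes. Their median log2 signal on polysomes was 14.39, 14.43, 14.38 and 14.48 on the 4 scramble arrays and 14.27, 14.22, 14.03 and 14.30 on the eIF6 shRNA arrays. In subpolysomes it was 13.58, 13.60, 13.57 and 13.56 with scramble and 13.96, 13.89, 13.92 and 13.83 with eIF6 shRNA. The medians of the eIF6 shRNA arrays were thus lower in one fraction and higher in the other, without overlap. Each of these medians rests only on the genes of middle signal. In subpolysomes these were Psmb1, which rose, and Psma7, which did not. On polysomes the upper of them was Psma3 or Psma7, both called lower. Over the 14 genes, the median change was -0.17 on polysomes and 0.14 in subpolysomes. Translational efficiency was below 0 for 14 of 14, from -0.08 (Psma1) to -0.81 (Psmb1), with a median of -0.36 against 0.02 over all genes. Of the 14, only Psmb1 was called for it, and 8 of the 14 were lower at an unadjusted p under 0.05, as were 1423 of all 19365 genes. Leaving out single replicates kept the median between -0.29 and -0.40. Within the 4 slides it was -0.27, -0.16, -0.31 and -0.66, and 13, 11, 14 and 13 of the 14 were below 0.

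For the ATPases of the base, the arrays of the shRNAs overlapped in both fractions (13.43 to 14.03 with scramble and 13.55 to 13.98 with eIF6 shRNA on polysomes, and 13.25 to 13.36 and 13.22 to 13.54 in subpolysomes). No ATPase was called in limma for any effect of the shRNA, at an adjusted or an unadjusted p under 0.05. Their translational efficiency ranged from -0.34 (Psmc3) to 0.00 (Psmc2). The highest polysomal array of each group was that of replicate 4. The difference between the core and the base was not tested. The 4 chaperones of core assembly had a median translational efficiency change of 0.01, between -0.19 (Psmg1) and 0.08 (Psmg3).

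**Figure D3:**
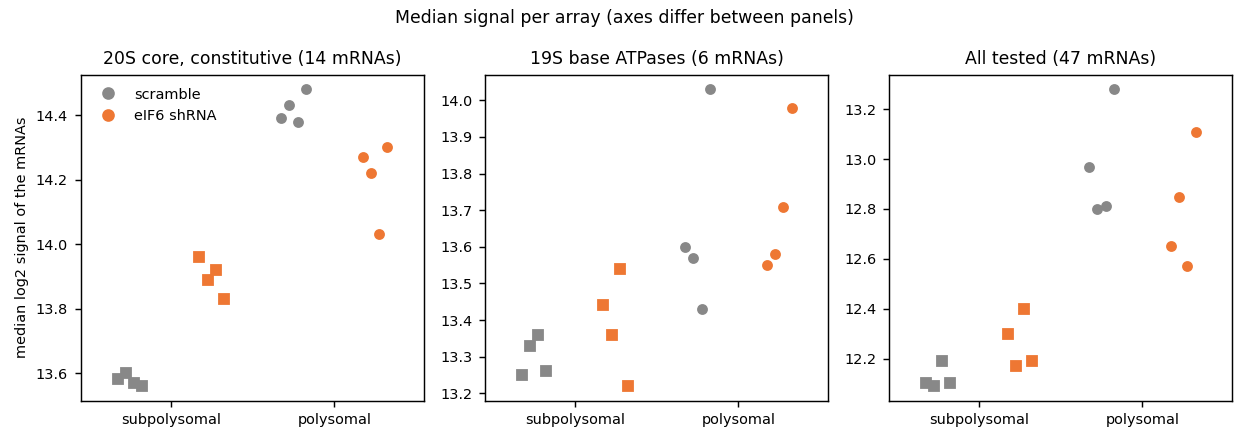
Median log2 signal per array over the 14 constitutive core subunits, the 6 ATPases of the base and all 47 members, in the 4 groups (4 arrays each, 1 point per array). The medians of the 2 shRNAs are apart in both fractions for the core, and overlap in both for the base. For the core they rest only on the genes of middle signal, Psmb1 and Psma7 in subpolysomes. On polysomes the upper of these genes was Psma3 or Psma7.

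In the alpha ring, Psma7 and Psma3 fell on polysomes. Psma7 had polysomal log2 signals of 15.21, 15.27, 15.15 and 15.13 in scramble and 14.88, 14.74, 14.59 and 14.77 in eIF6 shRNA cells, a change of -0.45 (standard error 0.08, adjusted p = 0.000586). Psma3 had 15.07, 15.14, 15.05 and 15.11 against 14.81, 14.79, 14.63 and 14.72, a change of -0.36 (adjusted p = 0.00211). For both genes every eIF6 shRNA array was below every scramble array. Their subpolysomal changes were -0.12 and -0.20 and were not called (adjusted p = 0.272 and 0.067), although Psma3 was called there without replicate 4 (adjusted p = 0.0313) and with the normexp background correction (adjusted p = 0.0431).

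Psma4 and Psma6, in contrast, rose in subpolysomes and were not called on polysomes. The subpolysomal signals of Psma4 were 10.90, 11.14, 11.11 and 10.91 in scramble and 11.36, 11.23, 11.46 and 11.36 in eIF6 shRNA cells, a change of 0.33 (standard error 0.10, adjusted p = 0.0201). Those of Psma6 were 11.91, 12.09, 12.08 and 12.05 against 12.30, 12.26, 12.42 and 12.29, a change of 0.28 (adjusted p = 0.0123). Again the arrays did not overlap. The call of Psma4 was lost without replicate 1, 3 or 4 (adjusted p = 0.151, 0.0814 and 0.0512) and that of Psma6 without replicate 1, 2 or 3 (adjusted p = 0.124, 0.0569 and 0.0795). Psma1, Psma2 and Psma5 were called in neither fraction.

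Among the beta subunits, Psmb1, which has no proteolytic site of its own, had the lowest translational efficiency change of the constitutive core. Its probe lies in chr17:15630098-15631393 of mm9, minus strand, across a splice junction, since its ends lie farther apart than its length. On polysomes the log2 signals were 13.71, 13.68, 13.71 and 13.64 in scramble and 13.74, 13.70, 13.42 and 13.69 in eIF6 shRNA cells, a change of -0.04 that was not called (adjusted p = 0.768). In subpolysomes they were 13.02, 13.06, 13.07 and 13.16 in scramble and 13.91, 13.85, 13.83 and 13.79 in eIF6 shRNA cells. The subpolysomal signal thus rose by 0.77 (standard error 0.08, adjusted p = 3.72e-06), 1.70-fold, with every array of one group above every array of the other. The change in translational efficiency was thus -0.81, at a standard error of 0.11 (adjusted p = 0.000926). Within the 4 slides it was -0.66, -0.87, -0.71 and -1.02. In eIF6 shRNA cells Psmb1 was the only core subunit that was higher in subpolysomes than on polysomes (-0.21, adjusted p = 0.03). This direction depended on the scaling. With scaling to the spike-in probes or quantiles within each fraction, all 14 constitutive core subunits were higher on polysomes (lowest 1.45 and 1.57). So were 88% and 90.4% of all genes under these scalings, with medians of 1.304 and 1.415 over all genes in eIF6 shRNA cells.

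The 3 catalytic subunits of the constitutive core are Psmb5 (chymotrypsin-like activity), Psmb6 (caspase-like) and Psmb7 (trypsin-like). Psmb5 fell on polysomes. Its signals there were 15.95, 16.06, 15.94 and 16.09 in scramble and 15.55, 15.80, 15.52 and 15.84 in eIF6 shRNA cells, a change of -0.33 (standard error 0.08, adjusted p = 0.00935). Its 2 probes gave -0.41 and -0.26. The groups did not overlap, but the call was lost without replicate 1, 2 or 3 (adjusted p = 0.0926, 0.0542 and 0.0787) and with the brighter probe alone (adjusted p = 0.055). In subpolysomes Psmb5 had 14.43, 14.48, 14.54 and 14.42 against 14.56, 14.46, 14.56 and 14.48, and these arrays overlapped.

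Psmb6 had polysomal signals of 15.93, 15.97, 16.06 and 15.77 in scramble and 15.99, 15.73, 15.50 and 15.59 in eIF6 shRNA cells (-0.23, adjusted p = 0.138, and 0.0494 with the normexp background correction). In subpolysomes it had 14.70, 14.66, 14.80 and 14.64 against 14.75, 14.69, 14.81 and 14.59. Both sets of arrays overlapped. Psmb7 had 13.34, 13.27, 13.22 and 13.35 against 13.13, 13.36, 12.54 and 13.12 on polysomes (-0.26, adjusted p = 0.23), and 12.11, 12.07, 12.19 and 12.28 against 12.41, 12.17, 12.40 and 12.14 in subpolysomes. Its array of replicate 3 on eIF6 shRNA polysomes lay below all the others. The 95% confidence intervals of the polysomal changes, -0.45 to -0.01 for Psmb6 and -0.55 to 0.04 for Psmb7, hold the value of Psmb5. The remaining beta subunits, Psmb2, Psmb3 and Psmb4, were not called for the shRNA, with polysomal changes of -0.19, -0.14 and -0.17 and subpolysomal changes of 0.25, 0.17 and 0.23.

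Interferon gamma makes cells exchange the 3 catalytic subunits for Psmb8, Psmb9 and Psmb10, which form the immunoproteasome and alter the peptides given to MHC class I molecules. All 3 mRNAs were well above background on 16 of 16 arrays, and each went its own way. Psmb8, the counterpart of Psmb5, fell most of all members. Its polysomal log2 signals were 8.42, 8.37, 8.42 and 8.48 in scramble and 6.70, 6.90, 6.28 and 6.53 in eIF6 shRNA cells. In subpolysomes they were 6.75, 6.62, 6.59 and 6.81 in scramble and 6.07, 5.89, 6.17 and 5.56 in eIF6 shRNA cells. The groups were far apart on polysomes and still separate in subpolysomes. On polysomes this was a change of -1.82 (standard error 0.14, adjusted p = 1.62e-07), which leaves 0.283 of the scramble signal. The subpolysomal change was -0.77 (adjusted p = 0.000849), and that in translational efficiency -1.05, at a standard error of 0.19 (adjusted p = 0.0117). Within the slides the polysomal change was -1.72, -1.90, -1.58 and -2.08. The call for translational efficiency was lost without replicate 1, 2 or 3 (-1.06, -1.16 and -0.83, adjusted p = 0.157, 0.065 and 0.159). The fall came beside that of Csf1r, 1 of 4 macrophage genes, and of the fibroblast genes Col1a1, Col1a2 and Pdgfrb, while Vim was not called. The part of these genes in the fall of Psmb8 was not tested. In RNA from whole cultures, fewer cells that express a gene and less of its RNA per cell cannot be told apart.

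Psmb9, the counterpart of Psmb6, was measured next to Psmb8 on chromosome 17 of mm9, with a probe at chr17:34319174-34319233 (minus strand) against chr17:34337771-34337830 (plus strand) for Psmb8. It rose where Psmb8 fell. On polysomes it had 7.48, 7.57, 7.68 and 7.40 in scramble and 8.29, 8.32, 7.94 and 7.93 in eIF6 shRNA cells, a change of 0.59 (standard error 0.17, adjusted p = 0.0229) without overlap. In subpolysomes it had 5.82, 6.11, 5.80 and 5.85 against 6.98, 6.22, 6.02 and 6.46, a change of 0.53 (adjusted p = 0.0381) in which the groups overlapped. Both calls were lost without replicate 1, 2 or 4 (adjusted p = 0.0516, 0.126 and 0.0669 on polysomes, and 0.232, 0.055 and 0.109 in subpolysomes). They were also lost when probes were not filtered, because a second Psmb9 probe, above background on 0 of 16 arrays, then entered the mean (0.28 and 0.30). The subpolysomal call was lost as well with the arrays scaled to their 75th percentile (0.43, adjusted p = 0.0915) and with the normexp background correction (0.23, adjusted p = 0.124).

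Psmb10, the counterpart of Psmb7, fell in subpolysomes. The signals were 13.16, 13.20, 13.14 and 13.11 in scramble and 12.84, 12.84, 12.81 and 12.94 in eIF6 shRNA cells, a change of -0.30 (standard error 0.06, adjusted p = 0.00301). On polysomes they were 13.28, 13.24, 13.25 and 13.14 against 13.04, 13.09, 13.06 and 13.11, and the change of -0.15 was not called (adjusted p = 0.106). The groups were separate in both fractions. The subpolysomal call was lost without replicate 1, 2 or 3 (adjusted p = 0.0554, 0.0721 and 0.0564), and on polysomes Psmb10 was called without replicate 4 (-0.19, adjusted p = 0.0219) and with the normexp background correction (-0.16, adjusted p = 0.0201). Psmb10 also stood apart from Psmb8 and Psmb9 in its polysome association, which was 0.07 in scramble cells (adjusted p = 0.324) against 1.73 and 1.64.

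**Figure D4:**
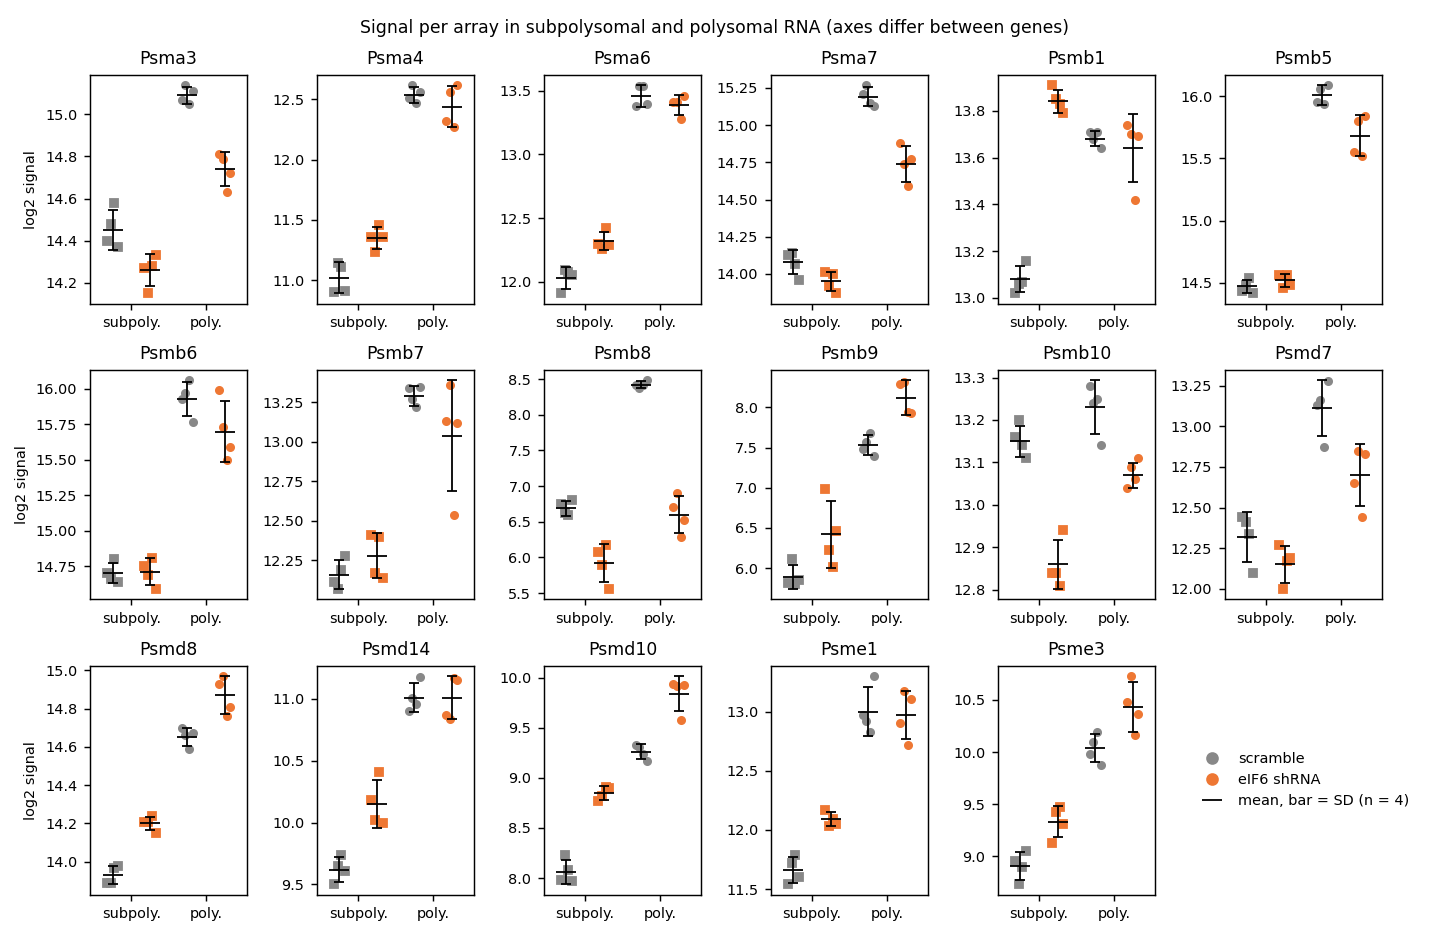
Log2 signal on each array for the 17 members described one by one, in subpolysomal (squares) and polysomal RNA (circles) of scramble (grey) and eIF6 shRNA cells (orange), with the mean and SD of 4 arrays. Psmb8 drops and Psmb9 rises on polysomes, Psmb1 rises in subpolysomes alone, and Psmd10 rises in both fractions.

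Other genes of MHC class I antigen processing and of the interferon response were read from a list of 10, of which 9 were tested. On polysomes, 3 of the 9 were called higher (33.3%, against 11.1% of all genes), Tapbp, which loads peptides (0.62, adjusted p = 0.00189), B2m, the light chain of the class I molecule (0.47, adjusted p = 0.000746), and the heavy chain gene H2-K1 (0.46, adjusted p = 0.00973). The peptide transporter gene Tap2 was called lower (-0.74, adjusted p = 0.0161), which makes 11.1% of the list against 10.7% of all genes. In subpolysomes the same 3 genes, Tapbp, B2m and H2-K1, were called higher (33.3%, against 11.9% of all genes) and 0 lower by limma, with Tap2 the 1 gene lower at an unadjusted p under 0.05. The list's median was 0.37 on polysomes and 0.06 in subpolysomes, and 0.02 and 0.03 over all genes. Tap1, the partner of Tap2, had 0.21 and 0.26 and was not called. In subpolysomes Tap1 was well above background on 0 of 4 arrays of either shRNA.

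In the 19S particle, Psmd7 and Psmd8 of the lid changed on polysomes in opposite directions. Psmd7 had 13.13, 13.16, 12.87 and 13.28 in scramble and 12.65, 12.85, 12.44 and 12.83 in eIF6 shRNA cells, a change of -0.41 (standard error 0.12, adjusted p = 0.0187). Its groups were separate by the narrow gap between 12.85 and 12.87, and the call was lost without replicate 1, 2 or 3 (adjusted p = 0.128, 0.0605 and 0.0501). In subpolysomes it was not called (-0.17, adjusted p = 0.334).

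Psmd8 rose in both fractions by a small amount. On polysomes it had 14.70, 14.66, 14.59 and 14.67 in scramble and 14.93, 14.97, 14.76 and 14.81 in eIF6 shRNA cells (0.21, standard error 0.07, adjusted p = 0.0339). In subpolysomes it had 13.89, 13.89, 13.97 and 13.98 against 14.21, 14.21, 14.24 and 14.15 (0.27, adjusted p = 0.00958). Neither pair overlapped. The polysomal change turned to -0.26 when the arrays were scaled to the spike-in probes, which moved the median of all genes by -0.47. The polysomal call was lost without replicate 1, 2 or 3 (adjusted p = 0.208, 0.236 and 0.12) and with the arrays scaled to their 75th percentile (adjusted p = 0.118) or normalized within each fraction (adjusted p = 0.0565), and the subpolysomal call without replicate 1, 2 or 3 (adjusted p = 0.108, 0.1 and 0.0635).

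Psmd14, whose protein removes ubiquitin chains at the entry of the core, rose in subpolysomes. It had 9.50, 9.65, 9.74 and 9.61 in scramble and 10.18, 10.02, 10.41 and 10.00 in eIF6 shRNA cells, a change of 0.53 (standard error 0.11, adjusted p = 0.00283) without overlap, and leaving out any single replicate did not end the call. On polysomes it had 10.90, 11.01, 10.96 and 11.18 against 10.87, 10.84, 11.17 and 11.15, and these groups overlapped. Its translational efficiency change of -0.53 had an adjusted p of 0.13. The other 8 tested subunits of this class, Psmd1, Psmd2, Psmd3, Psmd4 (a ubiquitin receptor), Psmd6, Psmd11, Psmd12 and Psmd13, were called in neither fraction. Psmd2 shows the widest spread, with 12.84, 12.74, 12.39 and 13.79 on scramble polysomes and 12.38, 12.58, 12.88 and 13.53 on eIF6 shRNA polysomes. The array of replicate 4 was the highest of each group for it.

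Psmd10, also called gankyrin, escorts ATPases into the base and binds the retinoblastoma protein and MDM2. It had the largest rise of the chaperones. On polysomes its signals were 9.33, 9.31, 9.24 and 9.17 in scramble and 9.94, 9.92, 9.58 and 9.93 in eIF6 shRNA cells (0.58, standard error 0.09, adjusted p = 0.000322). In subpolysomes they were 7.98, 8.23, 8.08 and 7.97 against 8.77, 8.82, 8.91 and 8.90 (0.79, adjusted p = 2.33e-05), a rise of 1.72-fold. All eIF6 shRNA arrays were above all scramble arrays in both fractions, and no single replicate's removal ended either call. Both of its probes, on the minus strand of chromosome X of mm9, rose on polysomes (0.55 and 0.60). In subpolysomes both rose but were less alike (0.98 and 0.59). The other chaperones of the base, Psmd5 and Psmd9, were called in neither fraction, with polysomal changes of -0.16 and -0.22.

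Of the activators, Psme3 (PA28 gamma, a nuclear activator) rose in both fractions and Psme1 (PA28 alpha, induced by interferon gamma) in subpolysomes. Psme3 had 9.98, 10.10, 10.19 and 9.88 in scramble and 10.48, 10.73, 10.16 and 10.37 in eIF6 shRNA cells on polysomes (0.40, standard error 0.12, adjusted p = 0.0308), where the groups overlapped. In subpolysomes it had 8.95, 8.73, 8.90 and 9.05 against 9.13, 9.42, 9.47 and 9.31 (0.43, adjusted p = 0.0194), where they did not. The polysomal change turned to -0.06 under scaling to the spike-in probes. Its call was lost without replicate 1, 2 or 4 (adjusted p = 0.171, 0.146 and 0.0945) and without the filter on dim probes (adjusted p = 0.0511), and the subpolysomal call without replicate 1, 2 or 3 (adjusted p = 0.0521, 0.118 and 0.0869).

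Psme1 had 11.54, 11.72, 11.79 and 11.60 in scramble and 12.17, 12.03, 12.09 and 12.05 in eIF6 shRNA subpolysomes, a change of 0.42 (standard error 0.12, adjusted p = 0.0149) without overlap. On polysomes it had 12.97, 12.92, 12.83 and 13.30 against 12.90, 13.17, 12.72 and 13.11, with overlap (-0.03, adjusted p = 0.906). The subpolysomal call was lost without replicate 1 or 2 (adjusted p = 0.152 and 0.057). No probe carried the name Psme2, the partner of Psme1. Psme2b is a copy of that gene, so its probes may also bind Psme2 mRNA and its values are uncertain. It was not called (-0.25 on polysomes and 0.24 in subpolysomes), and its 3 probes disagreed on polysomes, where they gave -0.85, 0.02 and 0.07. The first of these was well above background on only 4 of 16 arrays. Psme4 (PA200), the inhibitor Psmf1, the chaperones Psmg1, Psmg2, Psmg3 and Psmg4, and Psmc3ip were not called for the shRNA in any of the 3 comparisons.

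Partners and regulators of the proteasome that the naming rule does not catch changed little. Of 26 listed, 25 were tested, so that 1 call is 4% of them, while between 10.7% and 12.4% of all genes were called in each direction of either fraction. On polysomes 1 was called lower, Uchl5, a deubiquitinase of the 19S particle (-0.39, adjusted p = 0.0021), and 0 higher by limma. At an unadjusted p under 0.05, again 0 were higher on polysomes, against 3241 of all 19365 genes. In subpolysomes Shfm1, a small lid subunit, was called lower (-0.50, adjusted p = 0.00782), and Nfe2l1, a transcription factor that drives proteasome genes, was called higher (0.56, adjusted p = 0.0108). Translational efficiency was called for 0 of the 25 by limma, with 2 higher at an unadjusted p under 0.05, against 998 of all 19365 genes. The medians were 0.03, -0.05 and -0.03 in the 3 comparisons, and polysome association was called higher for 13 in scramble cells (52%, against 31.7% of all genes), with a median of 0.29 against 0.04. The median translational efficiency change of the proteasome members was -0.20.

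Nfe2l1 and its relative Nfe2l2 bind antioxidant response elements, and the core of that motif, TGACNNNGC, was searched on both strands of the promoters (250 bases before to 50 bases after the start; RefSeq, GRCm38.p6). Promoters were matched for 41 of the 49 members by symbol. Not matched were Psma8, Psmb1, Psmb2, Psmb7, Psmc3, Psmd3, Psmd7 and Psmg2. The motif was in 6 of the 41 (14.6%), and in 12.5% of 27025 promoters. CCAAT, also on both strands, was in 15 of the 41 (36.6%) and in 37.9% of all promoters. The promoters of the members thus held both motifs about as often as any promoter. The matches of the constitutive catalytic subunits are shown because Psmb5 fell on polysomes and Psmb6 was not called. They are written in the direction of the gene with the motif in capitals, from chr14:54618026-54618050 (minus strand) and chr11:70525340-70525364 (plus strand).
Psmb5: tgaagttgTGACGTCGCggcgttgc
Psmb6: aaagagagTGACGGAGCgctttacg
The other matches were in Psmc6, Psmd12, Psmd9 and Psme4, and 0 of the 3 immunoproteasome promoters held the motif in this window.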

How the data were processed

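Polysomal and subpolysomal RNA was labelled with Cy3 and hybridized to Agilent mouse arrays. Per the labels, the authors extracted the signals with Feature Extraction 10.7.7.1, while the file headers name 10.7.3.1. The intensity values used here are the processed signals that the authors deposited for each array, after background subtraction by that software. The authors also deposited a table of log2 values, normalized by quantiles, which served as an alternative (correlation with the values used here 0.995 to 1 per array). Probe coordinates are those of the files (mm9).

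Signals were put on the log2 scale, with uneven or outlying spots left out (82 probe values, none of a member), repeated spots averaged, and 25260 probes quantile normalized over 16 arrays. A gene's value is the mean of its kept probes. Each difference was fitted with limma 3.58.1 in R 4.3.3 on 4 group means and adjusted by Benjamini-Hochberg over all genes. The fit was tested on simulated data. No arrays held identical values. The labels speak of replicate experiments, and the study's methods state 4 biological replicates. Neither says more of the cultures, so p-values measure the spread between these arrays. Members and gene lists were chosen with earlier results of these data known. Values on each array are given for Psmb5 to Psmb10, for Psme1 and Psme3, and for up to 10 called members per comparison with the largest changes. Psmd2 was added after its values were seen. Alternatives covered the scaling, background correction, dim-probe filter, probe choice, the authors' table, slide and replicate blocks, and each replicate left out.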

Additional observations from a re-analysis of the deposited data

Results flagged for a closer look

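On eIF6 shRNA polysomes, the array of replicate 3 stood apart for Psmb1, with a log2 signal of 13.42 where the other 3 arrays had 13.69 to 13.74. The same array stood apart for Psmd10, with 9.58 against 9.92 to 9.94. These were 2 of 68 groups of 4 arrays examined for a single distant value, and chance alone gives about 1 in 20. Psmb1 and Psmb8 changed differently in polysomal and subpolysomal RNA, with translational efficiency changes of -0.813 and -1.053 on the log2 scale, both called by limma.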

How the results depend on the processing

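Of 765 values of named members under the alternatives, 67 lost a call, 5 gained one and 2 changed sign with a call in either setting. The other 691 kept their side of the threshold. These include values without a call in either setting, for which a change of sign was not counted. Scaling to the spike-in probes gave 1 member lower and 0 higher on polysomes (median -0.552), 0 lower and 0 higher in subpolysomes (median -0.11) and 0 lower in translational efficiency. Of all genes, this scaling called 5.45% lower and 0.522% higher on polysomes (median -0.474). In subpolysomes it called 1.78% lower and 0.222% higher (median -0.227), and 0.16% lower in translational efficiency. Under it Psmd8 and Psme3 on polysomes reversed to -0.257 and -0.058. Polysome association was then lower for 0 members in both cell groups, with medians of 2.716 in scramble and 2.237 in eIF6 shRNA cells. Over all genes the medians were 1.522 and 1.304, with 2.04% and 2.55% called lower. Quantile normalization within each fraction likewise gave 0 members lower in both, with medians of 2.594 and 2.345. Over all genes the medians under it were 1.384 and 1.415, with 4.64% and 4.34% called lower. The normexp correction called 9 members lower on polysomes (19.1%, against 11% of all genes). Without the filter on dim probes 2 were called higher there (4.26%, against 5.73% of all genes). The cause of these shifts was not tested. With single replicates left out, 3 to 10 members were lower and 1 to 3 higher on polysomes, 1 to 4 lower and 3 to 8 higher in subpolysomes, and 1 to 2 lower in translational efficiency. Association was then lower for 0 to 2 members in scramble and 0 to 3 in eIF6 shRNA cells. Polysomal arrays of both shRNAs deviated together in replicate 4 (correlation 0.413) and replicate 1 (0.117), but the other same-numbered pairs had -0.157 to 0.0598, so the number was not taken to pair the arrays. With it as a replicate block, 2 members in place of 4 were higher on polysomes, where Psmd8 and Psme3 had adjusted p = 0.0597 and 0.0559, and 6 were lower. The probes of Psma8 and Psmb11, the second probe of Psmb9 and 1 probe of Psme2b were limited by their signal over background, and the other 58 probes were well above it on all 16 arrays.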
